A study of Mus musculus with 5 samples.

Results

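The cells described here are mouse lung cells with a high count of Acta2, the gene of alpha smooth muscle actin. They were selected by measured counts. A barcode belonged if it had 701 to 7999 genes detected and under 5% of its counts from mitochondrial features, at least 5 counts of Acta2, at least 1 count of Tagln, no count of Pecam1 and under 2% of its counts from Sftpc. In the 4 unsorted libraries 504 of 12707 filtered cells met this rule, and the whole series held 13200 filtered cells.

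The lungs came from C57BL/6J mice that breathed room air (Air) or over 95% O2 (O2, hyperoxia) for 3 days from birth and then recovered in room air. Lung cells were taken at postnatal day 7 (pnd7), during formation of the alveoli, or at pnd60, in adulthood. The mothers were rotated between the hyperoxia and the room air litters. Each of the 4 conditions had 1 unsorted library of single cells, and the number of mice in a library is not given in the sources used here. A further library held cells of hyperoxia-exposed pnd7 lungs sorted on the senescence dye C12FDG, pooled from 3 lungs.

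Myofibroblasts and smooth muscle cells share actin and myosin filaments built for contraction, which wrap the airways and vessels in smooth muscle and sit at the tips of growing septa in alveolar myofibroblasts. Alveolar myofibroblasts carry the platelet-derived growth factor receptor alpha, deposit elastin while the septa rise, and become scarce once alveoli have formed. Smooth muscle persists through life and uses a smooth muscle myosin heavy chain encoded by Myh11. Many contractile genes are switched on by serum response factor with its partner myocardin, which bind a short element named the CArG box.

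The 250 bases upstream of the start of Acta2 and of Actc1 are shown because Acta2 chose the cells, Actc1 helped to split them, and both carry this element. The sequences are from RefSeq (GRCm38.p6), and both lie on the minus strand, at chr19:34255374-34255623 for Acta2 and at chr2:114052876-114053125 for Actc1, which encodes alpha cardiac actin. Capitals mark CArG boxes, searched on both strands, with at most 1 central base other than A or T.
Acta2: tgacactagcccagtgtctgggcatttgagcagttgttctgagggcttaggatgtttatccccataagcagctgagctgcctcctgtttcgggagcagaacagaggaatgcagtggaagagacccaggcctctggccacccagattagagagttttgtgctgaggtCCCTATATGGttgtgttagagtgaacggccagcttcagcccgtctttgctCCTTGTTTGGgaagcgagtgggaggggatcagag
Actc1: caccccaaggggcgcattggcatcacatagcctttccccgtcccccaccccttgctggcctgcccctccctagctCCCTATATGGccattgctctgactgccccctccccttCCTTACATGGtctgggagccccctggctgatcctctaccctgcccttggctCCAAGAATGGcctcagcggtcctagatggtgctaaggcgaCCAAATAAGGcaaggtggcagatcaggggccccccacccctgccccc
The Acta2 stretch held 2 such boxes, which began 84 and 34 bases before the start, each with 1 changed base. The Actc1 stretch held 4, and the last, 47 bases before the start, had no change. Of all 27025 promoters of this length, 1.62% held an unchanged CArG box, and 9.78% held one when 1 change was allowed. Among the 21 genes of the contractile list with a promoter, including those used in the selection, 5 held an unchanged box (Actc1, Cnn2, Myl6, Myl9 and Vcl), or 23.8%. With 1 change allowed 7 did, or 33.3%. Of the 10 markers of alveolar lipofibroblasts, none held an unchanged box and 1, Slc7a10, held one with 1 change, or 10%. A match describes these letters only and was not tested as a binding site.

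At pnd7, 295 of 2308 filtered Air cells and 175 of 1246 filtered O2 cells met the rule. These were 12.8% (exact Clopper-Pearson 95% interval 11.4 to 14.2) and 14.0% (12.2 to 16.1). At pnd60 only 16 of 4397 Air cells and 18 of 4756 O2 cells did, or 0.364% (0.208 to 0.590) and 0.378% (0.224 to 0.597). The shares at pnd7 overlapped within counting error between Air and O2, as did those at pnd60, whereas the pnd60 shares lay far below both pnd7 shares. Intervals throughout are 95% intervals of counting error alone. Because cells of one library share their mice and their preparation, a difference between conditions cannot be told apart from one between single libraries, and no test across mice was possible. The cut on Acta2 is a fixed count, so it asks less of a deep cell than of a shallow one. The median cell that met the rule held 11603 counts in Air and 15262 in O2 at pnd7, and 4056.5 and 2661 at pnd60. With all cells thinned to 2000 counts the shares at pnd7 were 9.66% in Air and 7.72% in O2, in the opposite order.

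Just inside the cut, 17 cells in Air and 14 in O2 at pnd7 had exactly 5 Acta2 counts, and 1 and 2 did at pnd60. Just outside it, 55, 16, 5 and 5 cells had 3 or 4 counts with the other criteria met. The median was 29 Acta2 counts per cell in both pnd7 libraries, 11.5 in Air at pnd60 and 16 in O2 at pnd60. Thus most cells sat well above the cut, with 10 counts or more in 241, 135, 11 and 13 of them. A cell with a count of Ptprc, Epcam or Cdh5, which mark immune, epithelial and endothelial cells, was kept by the rule, and there were 25, 15, 4 and 0 of these.

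The summed counts of these cells were 3662906 in Air and 2822352 in O2 at pnd7, against 89712 and 59229 at pnd60. Levels are given as CPM, the counts of a gene per 1000000 counts of these sums. The largest cell supplied 1.26% and 2.05% of the sum at pnd7 but 14.1% and 12.5% at pnd60, so that levels at pnd60 rest on few cells. The genes of the rule are given as a description. Acta2 was at 3880 CPM in Air and 3441 in O2 at pnd7, and at 4292 and 9033 at pnd60. Myh11 was at 863 and 586 CPM at pnd7 and at 1728 and 1874 at pnd60. Pdgfra was at 333 and 205 CPM at pnd7, and fell on only 9 and 2 counts at pnd60.

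Markers of other cells were low with some exceptions. The 10 cardiac muscle markers summed to 14.7 and 13.5 CPM at pnd7 and to 100 and 67.5 at pnd60. Nppa, an atrial peptide hormone, was at 0 in every library. The 6 endothelial markers summed to 118, 103, 100 and 67.5 CPM, with Pecam1, which the rule excludes, and Cldn5 at 0 throughout. The 6 immune markers summed to 67.2, 43.2 and 67.5 CPM in Air pnd7, O2 pnd7 and O2 pnd60 but to 3600 in Air pnd60, mostly from Cd74 of the antigen presentation machinery, and 204 of its 220 counts came from 1 cell. The 8 epithelial markers summed to 575, 204, 524 and 591 CPM, led by Sftpc or Scgb1a1, which are among the most abundant transcripts of lung epithelium. The red blood cell genes summed to 19407 CPM in Air and 7317 in O2 at pnd7 and to 123 and 33.8 at pnd60. Hbb-bs was present in every pnd7 cell selected, and also in 99.3% of Air and 100% of O2 immune cells of the same age. Immune cells here are those with 2 or more Ptprc counts and none of Acta2 or Pecam1.

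The cells were split by whether they held a count of Pdgfra, the label for myofibroblasts, and of Myh11 or Actc1, the label for smooth muscle. At pnd7 in Air, 25 of 295 cells had Pdgfra without Myh11 or Actc1 (8.47%), 94 had Myh11 or Actc1 without Pdgfra (31.9%), 150 had both (50.8%) and 26 had neither (8.81%). In O2, the 175 cells divided into 32 (18.3%), 50 (28.6%), 65 (37.1%) and 28 (16%). With all counts the class with both was the most common in each pnd7 library. Thinned to 2000 counts it was so in neither, at 23.9% in Air and 14.8% in O2, against 40.9% and 35.5% for the Myh11 or Actc1 class. The Pdgfra class then took 12.0% and 9.47%, in the opposite order, and the class with neither 23.2% and 40.2%. At pnd60, Myh11 or Actc1 without Pdgfra marked 14 of 16 cells in Air and 14 of 18 in O2. Only 1 cell in Air and 2 in O2 held any Pdgfra there. Thinned to 2000 counts, the Myh11 or Actc1 class at pnd60 held 7 of 13 cells in Air (53.8%) and 9 of 13 in O2 (69.2%). The class with neither then took 38.5% and 23.1%. In immune cells of pnd7, the share with a Pdgfra count was 0.678% in Air and 0.521% in O2, and the share with Myh11 was 1.02% and 0.521%. Since the classes were made with these genes, no test of their sizes was run.

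**Figure D1:**
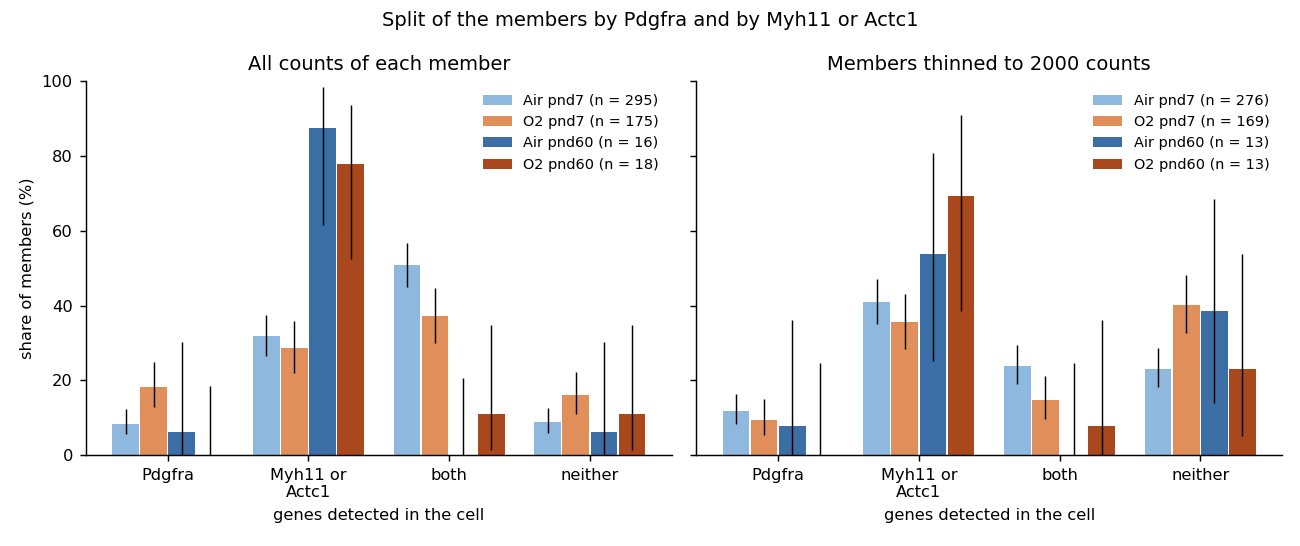
Shares of Acta2-high cells (y axis, %) with a count of Pdgfra only, of Myh11 or Actc1 only, of both or of neither, in the 4 unsorted libraries, with all counts (left) and after thinning to 2000 counts (right). Bars are shares and lines are exact 95% Clopper-Pearson intervals, and the class with Myh11 or Actc1 holds 87.5% and 77.8% of the cells at pnd60 with all counts.

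The other genes of these classes at pnd7 did not match the label of the Pdgfra class. Its cells were high for markers of alveolar lipofibroblasts, the lipid-storing fibroblasts that lie beside type II cells, and lower than the class with both for Tgfbi, Fgf18, Wnt5a and Mustn1 of the alveolar myofibroblast list. Tcf21, a transcription factor of this lineage, was at 1827 CPM in Air and 1717 in O2 in the Pdgfra class, against 76.6 and 186 in the class with both. Npnt, a matrix ligand of integrin, was at 1870 and 1739 CPM against 79.0 and 204. Limch1 and Gyg, which primes glycogen synthesis, followed the same order. Tgfbi, a matrix protein induced by TGF-beta, ran the other way, at 53.1 and 57.3 CPM in the Pdgfra class and 3445 and 2536 in the class with both. Fgf18, an alveolar growth factor, had no count in the Pdgfra class of either library, and was at 255 and 214 CPM in the class with both. Wnt5a stood at 200 and 189 CPM against 785 and 781, and Mustn1, a small muscle protein, at 12.6 and 18.6 against 604 and 487. These markers were not particular to the class with both, since in the Myh11 or Actc1 class of Air Tgfbi was at 3408 CPM, Fgf18 at 493, Wnt5a at 811 and Mustn1 at 904. The classes are therefore called by their genes alone. Pdgfra itself was at 127 and 99.1 CPM in the Pdgfra class and at 561 and 432 in the class with both.

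The class with neither was also high for lipofibroblast markers, with Tcf21 at 1693 and 1702 CPM and Mfap4, a microfibril protein of elastic fibres, at 13933 and 20067 against 14667 and 16155 in the Pdgfra class. It differed in Postn, at 188 and 368 CPM against 5.06 and 13.9. In Air it held 26 of the 33 Ptprc and 50 of the 70 Lyz2 counts of all selected cells, with Hbb-bs at 29022 CPM. The class with Myh11 or Actc1 was the highest of the 4 for the smooth muscle genes Actg2 (1136 CPM in Air and 1110 in O2) and Cnn1 (487 and 402), the gamma actin and the calponin of smooth muscle. It was also the highest for Eln, the elastin gene, at 14145 and 13472 CPM against 5813 and 4408 in the class with both and 2166 and 2474 in the Pdgfra class. Aspn, a leucine-rich matrix protein that was listed as a myofibroblast marker, was at 3764 and 1896 CPM in the Myh11 or Actc1 class and at 331 and 212 in the class with both. Notch3, the Notch receptor of mural cells, was at 320 and 402 CPM in the Myh11 or Actc1 class and at 39.3 and 10.1 in the class with both.

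**Figure D2:**
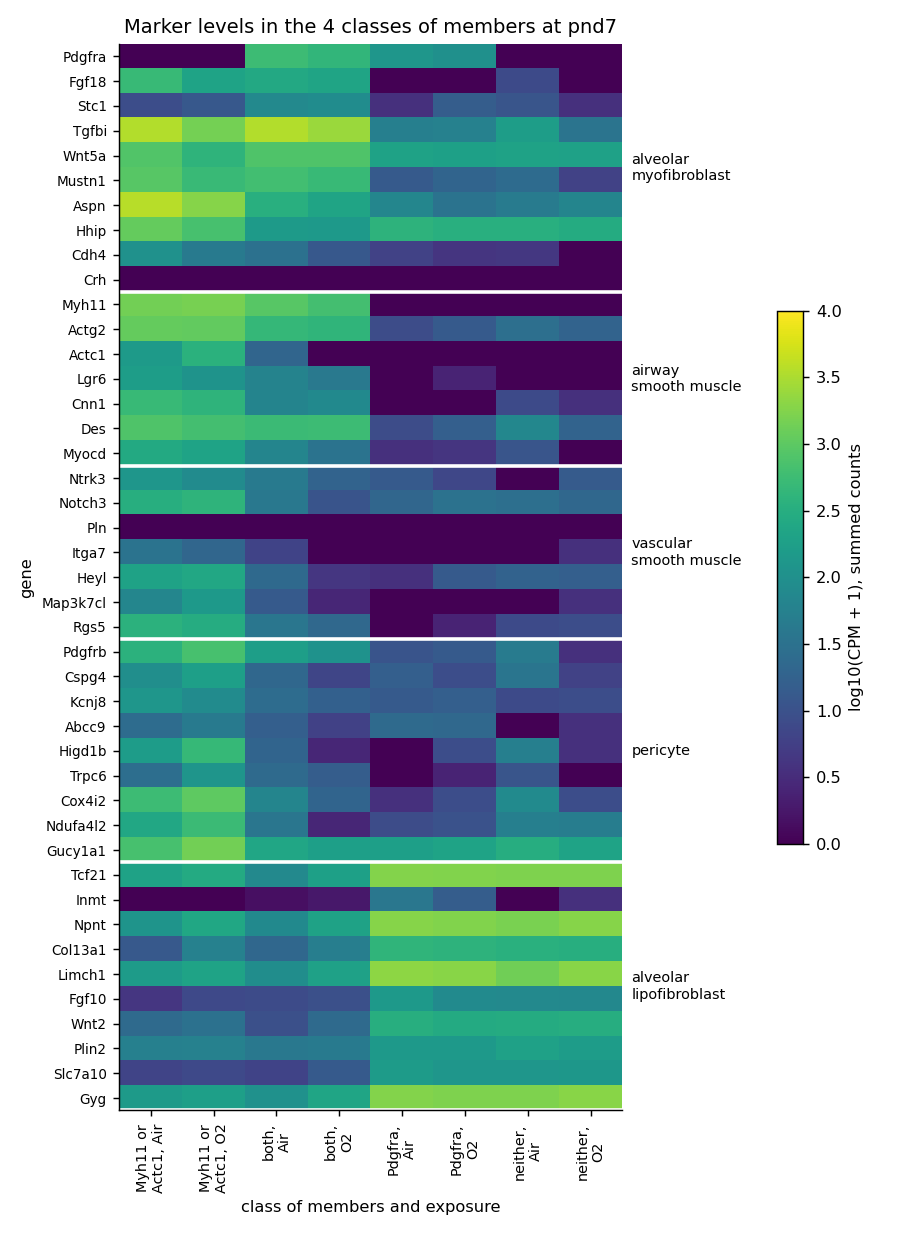
Levels of marker genes (rows) in the 4 classes of Acta2-high cells at pnd7 in Air and O2 (columns), as log10 of CPM + 1 from summed counts, on a colour scale from 0 to 4. The lipofibroblast rows are bright in the Pdgfra class and the class with neither, with Tcf21 at 1827 and 1693 CPM in Air, and darker in the other 2 classes.

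Between the Myh11 or Actc1 class and the Pdgfra class, 2172 genes could be compared in both pnd7 libraries and 1674 of them had the same direction in each. There were 157 genes past 2-fold higher in the Myh11 or Actc1 class in both libraries and 141 in the Pdgfra class. Among genes with counts in both classes of each library, the highest mean log2 ratio was that of Postn, the gene of the matrix protein periostin, with 7.59 ± 0.50 (SD, n = 2 libraries), followed by Cox4i2, a mitochondrial subunit of mural cells. Mcam, Actg2, Pdlim3, Rgs5, Myocd, Gja1, Cnn1 and Rrad completed the 10 highest, and each had at most 8 counts in the Pdgfra class of a library. Mcam, Rgs5, Gja1, Rrad and Cnn1 had 0 there in at least 1 library, so their ratios are bounds and their rank is not set. Myocd, the coactivator myocardin, was at 266 CPM in Air and 206 in O2 in the Myh11 or Actc1 class, and had 1 and 2 counts in the Pdgfra class. At the other end stood Maf, a transcription factor, at -4.58 ± 0.37, and Adh1, an alcohol dehydrogenase, at -3.95 ± 0.39. The other lowest genes were Fgfr3, Smim41, Ablim3, Clec3b, Vegfd, Meox2, Cpm and Col13a1, a transmembrane collagen. As the classes were cut from the same cells, these ratios are descriptions.

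The lineage genes also varied with the Acta2 count. In Air at pnd7, Tcf21 was at 1193 CPM in the 54 cells with 5 to 9 Acta2 counts, 594 in the 94 cells with 10 to 29 and 169 in the 147 cells with 30 or more. Myh11 ran from 153 to 501 and 1194 CPM over the same bins, and Aspn from 147 to 905 and 1433. In O2 Tcf21 stayed high in the middle bin, at 1138, 1408 and 374 CPM over 40, 48 and 87 cells, while Myh11 was at 116, 177 and 894 and Aspn was lowest in the middle bin, at 346, 224 and 677. The cells in the highest bin were also the deepest, with a median of 13101 counts in Air and 16880 in O2 against 6143 and 10102 in the lowest bin.

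Neighbouring sets of mesenchymal cells with under 5 Acta2 counts served for comparison. Cells with 10 or more counts of Col1a1, Col1a2 and Col3a1 together, all genes of fibrillar collagen, numbered 739 over the 4 libraries, and cells with 2 or more counts of Pdgfrb and any of Cspg4, Notch3 or Higd1b, as in pericytes, numbered 50. Both sets held no Pecam1 or Ptprc. Against the collagen cells, Myh11 was higher by 6.68 ± 2.78 on the log2 scale (SD, n = 4 libraries), but it served in the split. Outside the rule, Synpo2, an actin binding protein, was higher by 5.38 ± 2.06, Des, the intermediate filament of muscle, by 4.17 ± 0.75, and Mustn1 by 4.16 ± 1.02. Tgfbi and Aspn were higher by 3.34 ± 0.92 and 2.87 ± 1.09. Igfbp6 (-5.43 ± 1.32), the proteoglycan gene Dcn (-3.95 ± 0.92) and Inmt (-3.57 ± 0.97), a methyltransferase, were lower. Each of these had the same sign in 4 of 4 libraries, and the exact two-sided sign-flip permutation test over libraries gave p = 0.12, the smallest it can give with 4. Any gene with 1 sign in 4 of 4 gets this value, so it adds nothing to the sign, here and for the pericyte set below. Of 284 list genes that chose neither set, 77 (27.1%) were higher and 53 (18.7%) lower in 4 of 4, against 20.2% and 8.2% of all 11043 genes with a ratio in each library.

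Against the pericyte set, the Acta2-high cells had less of Postn (-3.82 ± 0.39), Cox4i2 (-3.62 ± 0.45) and Gucy1a1, a subunit of the nitric oxide receptor (-3.32 ± 0.14). Csrp1, a LIM protein of smooth muscle (3.02 ± 0.90), and the tropomyosin gene Tpm1 (2.06 ± 0.59) were higher. All had 1 sign in 4 of 4 libraries (exact sign-flip p = 0.12). Of 207 list genes that chose neither set, 41 (19.8%) were higher and 44 (21.3%) lower in 4 of 4, against 10.7% and 18.7% of all 5501 genes with a ratio in each library. Hhip, the hedgehog interacting protein that dampens hedgehog signalling, had no count in the pericyte set of 3 libraries and was at 427, 322, 3054 and 4120 CPM in the Acta2-high cells of Air pnd7, O2 pnd7, Air pnd60 and O2 pnd60. That set had only 10 to 15 cells in a library.

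O2 and Air were compared at pnd7 over 7960 genes with at least 100 counts in both libraries together. Past 2-fold, 44 genes (0.553%) were higher and 62 (0.779%) were lower in O2, and the median log2 ratio of all 7960 was -0.01. Of the 9 myofibroblast markers measured, Pdgfra of the split included, 3 were past 2-fold lower and none higher, with a median of -0.83, and the list summed to 6296 CPM in Air and 3426 in O2. Of the 9 lipofibroblast markers measured, 1 was past 2-fold higher and none lower, with a median of 0.86, and their sum was 1944 CPM in Air and 3653 in O2.

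Aspn was at 1116 CPM in Air and 507 in O2, a log2 ratio of -1.14 (binomial 95% interval -1.23 to -1.05). Tgfbi was at 2813 and 1397 CPM, with -1.01 (-1.06 to -0.96), and was short of 2-fold after thinning (-0.89) and with a cut of 0.1% of counts on Acta2 (-0.81). Cdh4, a cadherin, was at 43.4 and 14.5 CPM (-1.58, -2.11 to -1.08). Short of 2-fold were Fgf18 at 266 and 135 CPM (-0.98), Mustn1 at 568 and 319 (-0.83), Wnt5a at 682 and 484 (-0.50) and Hhip at 427 and 322 (-0.41). All 7 were lower in O2, whereas Stc1 (-0.11, -0.46 to 0.23) lay within counting error of no difference. Crh had no count in either library.

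Npnt was at 397 CPM in Air and 798 in O2, a log2 ratio of 1.01 (0.91 to 1.10). Tcf21 was at 423 and 764 CPM (0.85), Limch1 at 421 and 838 (0.99), Gyg at 421 and 792 (0.91) and Col13a1 at 87.1 and 163 (0.90). The share of cells with a Tcf21 count was 34.2% in Air and 60.6% in O2, and 21.4% and 42.0% after thinning. In immune cells it was 2.71% and 1.56%. The cells were chosen before thinning, at unequal depth.

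Elastic fibre genes divided. Of 14 measured, 2 were past 2-fold higher and none lower, and the median was -0.04. Fbln5, which guides elastin onto microfibrils, was at 288 CPM in Air and 680 in O2 (1.24, 1.13 to 1.35). Mfap4 was at 3551 and 7649 CPM (1.11, 1.08 to 1.14). Eln, the core of the fibre, was at 7119 and 5516 CPM (-0.37, -0.40 to -0.34), in the opposite direction.

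Levels over all selected cells mix the classes in the proportions given above, so the same genes were followed within each class. In the Pdgfra class, Tcf21 (-0.09), Npnt (-0.10), Limch1 (-0.07) and Gyg (-0.08) had intervals that spanned 0, and Mfap4 was at 0.14 (0.09 to 0.19). In the class with both, Tcf21 was at 76.6 CPM in Air and 186 in O2 (1.28, 0.98 to 1.59), Npnt at 1.37 (1.08 to 1.66) and Mfap4 at 1.13 (1.04 to 1.22), each past 2-fold. The lipofibroblast list accordingly had medians of -0.10 in the Pdgfra class, 0.42 in the Myh11 or Actc1 class and 1.18 in the class with both. Fbln5 was past 2-fold in the Myh11 or Actc1 class, at 104 CPM in Air and 419 in O2 (2.01, 1.66 to 2.37), and at 0.81 in the class with both. In the class with neither, Tcf21 was at 0.01 (-0.16 to 0.18), Npnt at 0.30 and Mfap4 at 0.53.

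Of the myofibroblast markers in the Myh11 or Actc1 class, Tgfbi was at 3408 CPM in Air and 1462 in O2 (-1.22, -1.33 to -1.11), Fgf18 at 493 and 210 (-1.24), Wnt5a at 811 and 402 (-1.01) and Aspn at 3764 and 1896 (-0.99). Genes that were higher in the pericyte set ran the other way in this class. Cox4i2 was at 543 CPM in Air and 1007 in O2, Gucy1a1 at 679 and 1428 and Postn at 1247 and 2094. Rgs5, a vascular marker, was lower at 373 and 303 CPM. Their part in the myofibroblast differences was not tested. In the class with both, Tgfbi was at -0.44, Fgf18 at -0.25 and Aspn at -0.64, while Wnt5a at -0.01 (-0.13 to 0.11) was within counting error. On few counts, Tgfbi was at 167 CPM in Air and 33.4 in O2 in the class with neither (-2.32, -3.33 to -1.42), and Aspn at 68.3 and 32.5 in the Pdgfra class (-1.07, -1.97 to -0.19). Myh11 was at 0.09 (-0.04 to 0.21) in the Myh11 or Actc1 class and at -0.51 (-0.64 to -0.39) in the class with both. These differences between classes were not tested against each other.

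**Figure D3:**
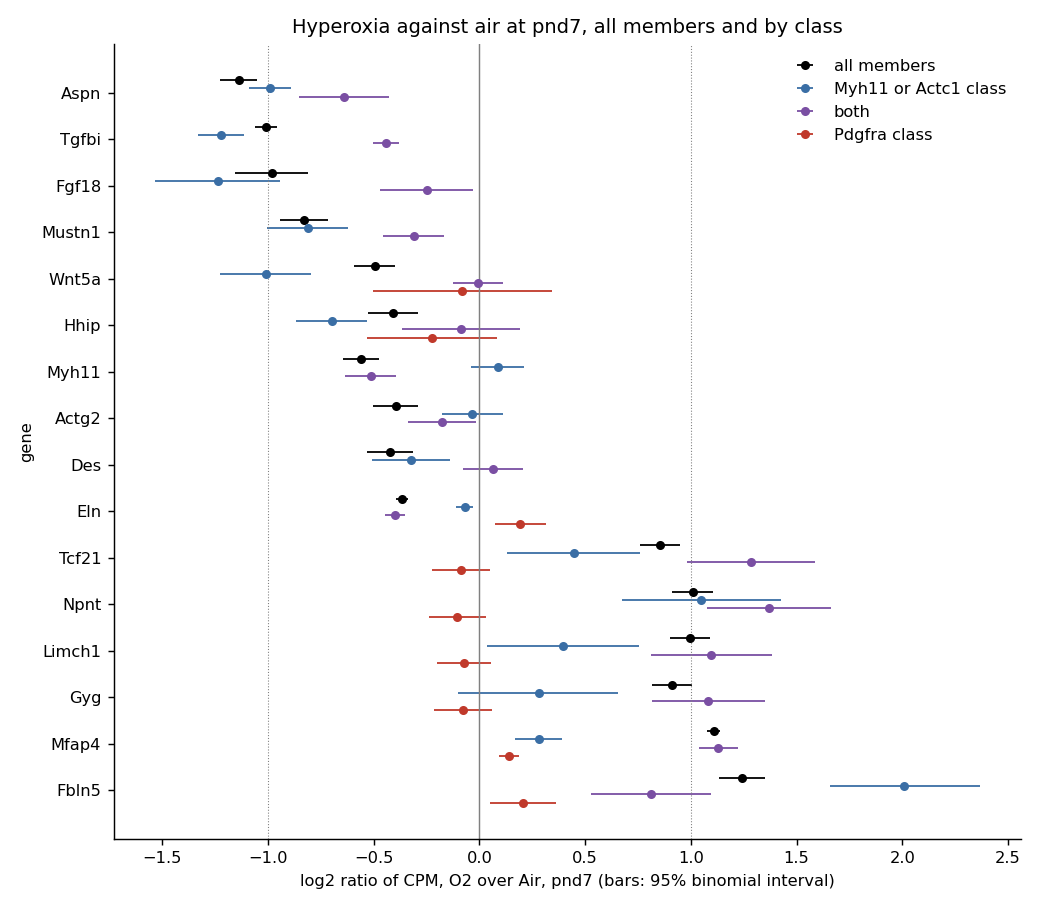
Log2 ratio of CPM in O2 over Air at pnd7 (x axis) for 16 genes (y axis), over all Acta2-high cells and in 3 of their classes, with binomial 95% intervals as lines and dotted lines at 2-fold. Tcf21 and Npnt lie near 0 in the Pdgfra class (-0.09 and -0.10) and past 2-fold in the class with both (1.28 and 1.37).

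The contractile list had a median of -0.08 at pnd7, and none of its 20 measured genes was past 2-fold. Of all 7960 genes only 0.553% were past 2-fold higher and 0.779% lower. A short list with none past 2-fold therefore does not stand apart from all genes, here and in the lists below. Pdlim3, a LIM protein of actin filaments, was at 544 CPM in Air and 325 in O2 (-0.74), Des at 499 and 372 (-0.42), Actg2 at 542 and 412 (-0.40) and Cnn1 at 155 and 118 (-0.38). Ppp1r14a, an inhibitor of myosin phosphatase, was higher at 227 and 360 CPM (0.66), as was Csrp1 at 1079 and 1466 (0.44). The most abundant of the list stood nearer to no difference, with the myosin light chain Myl6 at -0.01, Cald1, the actin-binding caldesmon, at -0.26 and Tpm1 at -0.04. The airway smooth muscle list had a median of -0.42 over 8 genes and the vascular list -0.38 over 7, with none past 2-fold. Among 11 smooth muscle channels and receptors, 1 was past 2-fold, the potassium channel Kcnma1, at 48.6 CPM in Air and 17.7 in O2 (-1.46, -1.94 to -1.0).

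The 14 collagens measured had none past 2-fold and a median of -0.11. Col1a1 was at 3204 CPM in Air and 3640 in O2 (0.18), Col1a2 at 3604 and 3699 (0.04) and Col3a1 at 3885 and 3168 (-0.29). Signalling lists are to be read against the same shares of all genes. In the TGF-beta and BMP list, 0 of 18 were past 2-fold with a median of -0.22, and the ligand Tgfb2 was at -0.50, its matrix target Ccn2 at -0.38 and the latency protein Ltbp3 at -0.45. In the FGF list, 0 of 12 were past 2-fold, the receptor Fgfr1 at -0.58 and the feedback inhibitor Spry1 at -0.36. In hedgehog signalling 0 of 4 were, with the receptor Ptch1 at -0.12. In WNT signalling 1 of 10 was, the secreted inhibitor Sfrp2, at 24.6 CPM in Air and 50.7 in O2 (1.04, 0.65 to 1.44). Sfrp2 went in opposite directions by class, at 2.96 in the Myh11 or Actc1 class and -2.58 in the class with both. It was present in 26 and 15 cells, and 1 cell held 50% of its counts in Air and 1 held 47.6% in O2. After thinning it was at 0.07. The list of the insulin-like growth factor axis and imprinted growth genes had 0 of 14 past 2-fold, with Igfbp7 at 0.71, Igfbp4 at 0.37 and Igf1 at -0.02. The Notch list had 0 of 6, with Notch3 at -0.08 (-0.30 to 0.15).

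Lists of growth and senescence genes also had none past 2-fold among genes with 100 counts or more. As only 0.553% of all 7960 genes were past 2-fold higher and 0.779% lower, this does not set these lists apart. Of 20 cell cycle genes none was past 2-fold, with a median of 0.25. The proliferation marker Mki67 was at 178 CPM in Air and 145 in O2 (-0.30, -0.48 to -0.11), the topoisomerase Top2a at 204 and 201 (-0.02), and Hmgb2 at -0.09. Of 14 targets of p53, the damage-induced transcription factor, none was past 2-fold and the median was -0.04, with Btg2 at -0.04, Plk2 at -0.19 and Bax at 0.15. Of 7 senescence markers measured none was past 2-fold, and the nuclear lamina gene Lmnb1 was at 125 and 123 CPM (-0.02, -0.23 to 0.18). Hmgb1 was at 0.11 and B2m at 0.20.

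Cdkn1a, which encodes the cell cycle inhibitor p21, was at the limit of detection. It had 9 counts in 5 of 295 Air cells (1.69%) and 22 counts in 7 of 175 O2 cells (4%), a log2 ratio of 1.67 (0.49 to 2.97). Of the 22 counts in O2, 16 were in the Pdgfra class, which had 0 in Air. With a cut of 10 Acta2 counts, 6 counts in O2 and 8 in Air were left and the ratio was -0.0045. In immune cells of pnd7, which express Cdkn1a, 12.9% in Air and 20.8% in O2 held a count. Cdkn2a, the p16 locus, had 6 counts in Air and 7 in O2.

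Highest in O2 was Cpe, a prohormone processing peptidase, at 6.55 CPM in Air and 31.9 in O2 (2.28), but it was found in 7 and 9 cells and 1 cell held 54.2% and 48.9% of its counts. Upk1b, a uroplakin, followed at 17.5 and 54.2 CPM (1.63) and was found in 29 and 40 cells. The complement gene C7 (1.56), Pi15 (1.48), Cass4 (1.44), Clstn2 (1.44), Grp (1.43), Itm2a (1.42), H2bc4 (1.36) and Gfod2 (1.31) completed the 10 highest. Itm2a, a membrane protein, was found in 76 of 295 Air cells and 89 of 175 O2 cells.

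At the low end stood genes of airway epithelium. Sec14l3, a lipid transfer protein, was at 44.2 CPM in Air and 2.83 in O2 (-3.96), and 1 cell held 73.5% of its Air counts. Scgb1a1, the secretoglobin of club cells, was at 124 and 11.0 CPM (-3.50), and Wfdc2 (-2.98), Cbr2 (-2.20) and Cd24a (-2.06) followed. Sftpc, which the rule limits, was at 408 and 182 CPM (-1.17). Without cells that held Ptprc, Epcam or Cdh5, Sec14l3 was at -0.40 and Cbr2 at 0.78. Below them in rank, the mesenchymal genes Ccdc3 (-1.87), Scx (-1.81), a tendon transcription factor, and Enpp1 (-1.67), which makes pyrophosphate, had 402, 372 and 306 counts in Air, and Ccl6 (-1.79) and Nt5dc3 (-1.77) completed the 10 lowest. All 5 red blood cell genes were past 2-fold lower in O2, with Hbb-bs at -1.32, and their part in the other differences was not tested.

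At pnd60 the comparison of O2 with Air rested on 34 cells, and 175 genes had 100 counts or more. Past 2-fold, 9 (5.14%) were higher and 7 (4%) lower in O2, and the median of all was 0.01. Of the 9, 1 was the sex-linked gene Xist, at 613 CPM in Air and 1249 in O2 (1.03, 0.50 to 1.56). The sex-linked gene Ddx3y had 6 counts in Air and 7 in O2. The part of the sex of the mice in these ratios was not tested. Igfbp3, a binding protein of insulin-like growth factors, was at 602 CPM in Air and 1958 in O2 (1.70, 1.22 to 2.20). Eln was at 1260 and 3377 CPM (1.42, 1.08 to 1.77), Cald1 at 613 and 1587 (1.37, interval 0.88 to 1.88) and the myosin light chain Myl9 at 869 and 1942 (1.16). Of 9 measured genes of the contractile apparatus, 2 were past 2-fold higher and none lower, with a median of 0.49. The O2 cells were shallower, with a median of 2661 counts against 4056.5, so the fixed cut asked for a larger share of Acta2 there. In cells with 5 to 9 Acta2 counts, Acta2 was at 1737 CPM in Air and 2833 in O2. With 10 to 29 it was at 2592 and 6582. The part of depth in the contractile ratios was not tested. Ifitm3 (1.2), Id4 (1.16), an inhibitor of helix-loop-helix factors, Acta2 itself (1.07), which chose the cells, S100a6 (1.06), Mustn1 (1.0) and Tpm2 (0.97) completed the 10 highest.

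Single cells weighed heavily in these values. In O2, 1 cell held 46.0% of the Eln counts and 1 held 37.9% of the Igfbp3 counts, and Igfbp3 was found in 7 of 16 and 7 of 18 cells. As mean CPM per cell, Eln was at 0.65 and Igfbp3 at 1.23. Leaving out the 4 Air cells with Ptprc, Epcam or Cdh5, Eln was at 0.96, Igfbp3 at 0.99 and Cald1 at 1.09, and only 3 genes were past 2-fold higher, of 120 measured.

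The lowest at pnd60 was Cd74 (-6.18), a gene abundant in immune cells, which had 220 counts in Air, of which 92.7% were in 1 cell, and 2 in O2. Cd9 (-1.95), the lysosomal genes Psap (-1.84) and Ctsd (-1.64), Tmsb4x (-1.53), Cd44 (-1.34), Rps9 (-1.04), Actg1 (-0.92), Cst3 (-0.90) and Ogn (-0.89) followed. Without those 4 Air cells, 3 genes were past 2-fold lower, none of them among the 7, and Ctsd was at 0.16. The fibrillar collagens were short of 2-fold, with Col1a1 at 0.57, Col1a2 at 0.69 and Col3a1 at 0.47. Myh11 was at 0.12 (-0.25 to 0.48) and Hhip at 0.43 (0.18 to 0.69). Cdkn1a had 3 counts in Air and 1 in O2, and Cdkn2a had none in either, where 3 counts would be 33.4 and 50.7 CPM.

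The comparisons of age share their libraries with those of exposure, and each exposure gives its own values. In Air, 6139 genes were compared between pnd60 and pnd7, of which 748 (12.2%) were past 2-fold higher and 1295 (21.1%) lower at pnd60. In O2, 5061 were compared, with 705 (13.9%) higher and 1211 (23.9%) lower. The median of all genes was -0.13 in Air and -0.12 in O2, so the ratios below are to be read against that shift. Over all selected cells of both exposures, the airway and vascular smooth muscle lists had more genes past 2-fold higher than lower in adults, and the elastic fibre and cell cycle lists more genes lower. With all counts the mix of classes moved with age. The Myh11 or Actc1 class made up 31.9% of pnd7 and 87.5% of pnd60 cells in Air, and 28.6% and 77.8% in O2. The pnd7 cells were deeper. After thinning to equal depth this class made up 40.9% (35.1 to 47.0) at pnd7 and 53.8% (25.1 to 80.8) at pnd60 in Air. In O2 it made up 35.5% (28.3 to 43.2) and 69.2% (38.6 to 90.9). In both exposures the thinned shares of the ages overlapped within counting error.

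The ages were therefore also compared within the Myh11 or Actc1 class, a comparison added after the data were seen. It set 14 adult cells against 94 at pnd7 in Air and 14 against 50 in O2. The class was cut with all counts. Its median cell held 9619.5 counts in Air and 11463 in O2 at pnd7, against 4056.5 and 2659 at pnd60. A shallow adult cell can thus enter by a missed Pdgfra count, and the part of this in the ratios within the class was not tested. There, 151 of 1812 genes (8.33%) were past 2-fold higher and 429 (23.7%) lower in Air, and 111 of 1129 (9.83%) higher and 343 (30.4%) lower in O2. The airway list, which holds Myh11 and Actc1 that cut the class, had 2 higher and 1 lower of 8 in Air. In O2 it had 3 higher and none lower of 7. Actc1 was among the higher genes in both, at 3.20 and 1.60, so these counts are descriptions. The vascular list had none higher and 1 lower, of 6 and of 5, with medians of 0.37 and 0.01. The contractile list had 2 higher and 3 lower of 20 in Air (median 0.05), and 3 higher and 1 lower of 20 in O2 (median -0.06). The excess of higher genes in the vascular list over all selected cells was thus not seen within the class. The elastic fibre list had 10 lower and 1 higher of 12 in Air, and 8 lower and 1 higher of 13 in O2. Markers of other cells moved with age in this class too. The list of pericyte markers had 3 lower of 7 in Air (median -0.88) and 4 lower of 7 in O2 (median -1.52), with none higher. The immune gene Cd74 was at 7.43 in Air. Their part in the other differences was not tested. Of the cell cycle list only 2 genes and 1 gene were measured, each lower.

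Of 8 airway smooth muscle markers, Myh11 and Actc1 of the rule included, 5 in Air and 6 in O2 were past 2-fold higher and none lower. Hhip was at 427 CPM at pnd7 and 3054 at pnd60 in Air (2.84, 2.65 to 3.02), and at 322 and 4120 in O2 (3.68, 3.47 to 3.88). Within the Myh11 or Actc1 class Hhip was at 1.58 (1.38 to 1.78) in Air and 2.47 (2.20 to 2.73) in O2, past 2-fold in both. Over all selected cells Des was at 1.31 and 2.22, Cnn1 at 2.01 and 1.51, and Myh11 of the rule at 1.0 and 1.68. Within the class these ratios were smaller, with Des at 0.78 and 1.05, Cnn1 at 0.50 (0.08 to 0.91) and 0.01 (-0.80 to 0.72), and Myh11 at 0.44 and 0.20. Actc1, also of the rule, was at 48.1 and 1271 CPM in Air (4.72) and 74.4 and 1334 in O2 (4.16), yet was found in 4 of 16 and 7 of 18 adult cells. Within the class Actc1 was at 3.20 (2.83 to 3.57) in Air and 1.60 (1.11 to 2.07) in O2. Of 6 vascular markers, Myh11 included, 5 were higher and 1, Rgs5, lower in each exposure, and Notch3 was at 1.77 (1.2 to 2.29) in Air and 3.30 (2.87 to 3.72) in O2. Within the class Notch3 was at 0.30 (-0.27 to 0.83) in Air and 0.96 (0.39 to 1.49) in O2. The contractile list had 6 higher and 2 lower of 20 in Air, and 11 higher and 1 lower of 20 in O2. Lmod1, a nucleator of actin filaments, was at 2.06 and 2.99, and Synpo2 at 2.07 and 3.09, against 0.69 and 0.74, and 1.01 and 1.01, within the class.

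Of the elastic fibre genes in Air, 10 of 14 were past 2-fold lower and 1 higher, with a median of -1.74. In O2, 7 of 14 were lower and 1 higher, with a median of -0.96. Mfap4 was at 3551 CPM at pnd7 and 234 at pnd60 in Air (-3.92, -4.62 to -3.31), and at 7649 and 287 in O2 (-4.74, -5.52 to -4.06). Eln was at 7119 and 1260 CPM in Air (-2.50) and at 5516 and 3377 in O2 (-0.71). Within the Myh11 or Actc1 class, where Eln was highest at pnd7, it was at 14145 and 1047 CPM in Air (-3.76, -4.08 to -3.45) and at 13472 and 3972 in O2 (-1.76, -1.99 to -1.54), past 2-fold lower in both. Mfap4 was at -3.93 and -3.85 within the class. The 1 gene higher in both exposures was Ltbp4, which tethers latent TGF-beta to the fibre, at 272 and 1003 CPM in Air (1.88) and 314 and 1216 in O2 (1.95). It was found in 15 of 16 and 17 of 18 adult cells.

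Of the myofibroblast markers, Pdgfra of the split included, 3 were past 2-fold higher and 4 lower of 9 in Air, and 2 higher and 3 lower of 8 in O2. Tgfbi was at -3.03 in Air and -2.56 in O2, and Fgf18, with 1 and 2 counts at pnd60, at -4.58 (-9.88 to -2.09) and -2.00 (-5.05 to -0.13). Tcf21 was at -2.44 and -2.92 on 7 and 6 adult counts. Tnc, the matrix protein tenascin C, was at 1446 and 167 CPM in Air (-3.11) and at 995 and 50.7 in O2 (-4.30). Nrep was the lowest in Air, from 1434 CPM to 22.3 (-6.01). Of 18 cell cycle genes measured, 11 in Air and 7 in O2 were past 2-fold lower and none higher. Mki67 had 653 and 410 counts at pnd7 and 1 and 0 at pnd60. Of the collagens, 6 of 14 were lower and 1 higher in Air and 2 of 13 lower and 2 higher in O2.

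**Figure D4:**
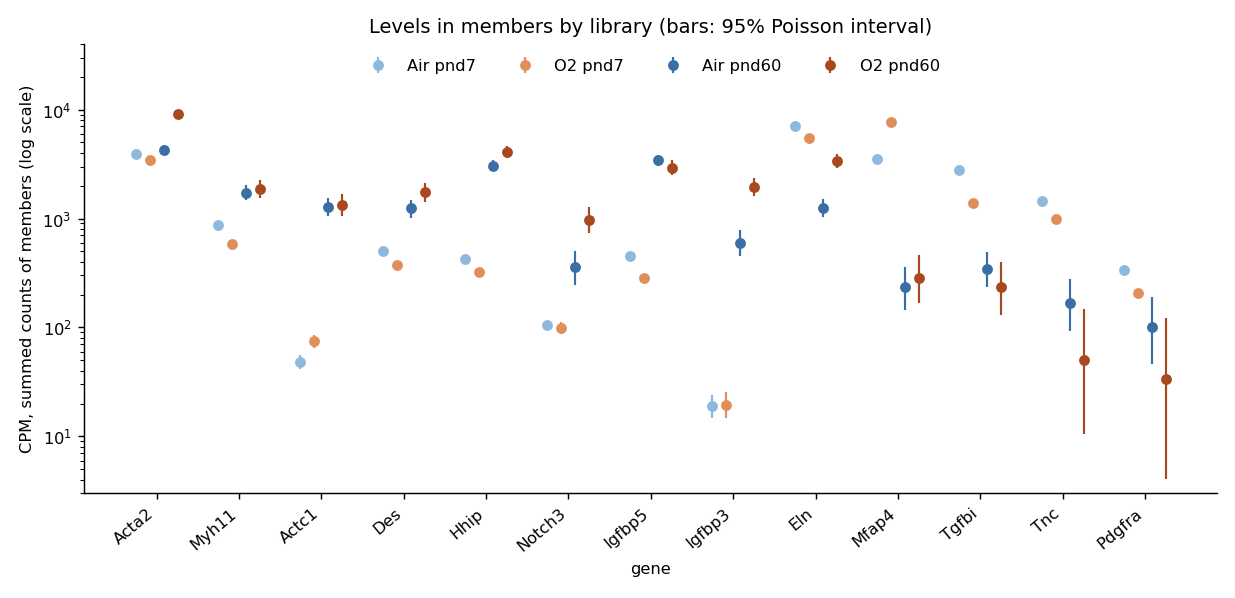
Levels of 13 genes (x axis) in the Acta2-high cells of the 4 unsorted libraries, in CPM of summed counts on a log scale (y axis), with exact Poisson 95% intervals as lines. Hhip stands at 3054 and 4120 CPM at pnd60 against 427 and 322 at pnd7, and Mfap4 at 234 and 287 against 3551 and 7649.

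Some genes with high ratios in adult cells were picked after their values were seen and stand for no group. In the list of the insulin-like growth factor axis and imprinted growth genes, 4 of 14 were past 2-fold higher and 6 lower in Air, and 4 of 13 higher and 6 lower in O2. Of the lower genes, 5 in each exposure were imprinted growth genes, Peg3, Plagl1, Grb10 and Cdkn1c in both, with H19 in Air and Mest in O2. Each had at most 7 adult counts, and the interval of Plagl1 spanned 0 (-2.99 to 0.26 in Air and -7.23 to 0.58 in O2). Igf2 in Air (0.65) and Igf2r in both (0.47) were not lower. In the list of Nrf2 targets and metallothioneins, which answer oxidative stress, 1 was higher and 1 lower of 4 in Air, and 1 higher and 2 lower of 4 in O2. Igfbp3 was at 18.8 CPM at pnd7 and 602 at pnd60 in Air (5.0) and at 19.5 and 1958 in O2 (6.65). Igfbp5 was at 456 and 3411 CPM in Air (2.90) and 287 and 2938 in O2 (3.36). Gpx3, a secreted glutathione peroxidase, was at 4.55 in Air and 3.84 in O2, and Sod3, the extracellular superoxide dismutase, at 4.29 and 4.73. Gsn, which severs actin filaments, was at 2.71 and 3.18. Sod3 and Gsn were found in all 18 adult O2 cells, and in 15 and 16 of the 16 Air cells. Of 10 handling and immediate early genes, 8 were past 2-fold higher and 1, Ier3, lower in Air (2 and 211 counts), 6 were higher and none lower in O2, and their part in the other differences was not tested. Also high in Air at pnd60 were the immune genes Cd74 (8.18), Lcp1 (5.08) and Irf8 (4.81), and 1 cell held 68.8% of the Irf8 counts.

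Hhip and Notch3 were followed cell by cell. In Air at pnd60, 6 cells held Hhip without Notch3, 6 held Notch3 without Hhip, 1 held both and 3 held neither. In O2 these numbers were 7, 9, 0 and 2. Of the adult cells 1 of 34 thus held both, and the counts of the cells with Hhip alone were high, up to 82 in 1 cell. In immune cells of pnd60, 0.375% in Air and 0.447% in O2 held Hhip, and 1.05% and 1.15% held Notch3. At pnd7 both were found in 19 of 295 Air cells and 22 of 175 O2 cells, with 117 and 71 for Hhip alone and 46 and 37 for Notch3 alone. The pnd7 cells were several times deeper, and the ages were not tested against each other. Aspn was found with Hhip in 6 of the 7 adult Air cells that held Hhip, and in 4 of 7 in O2.

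**Figure D5:**
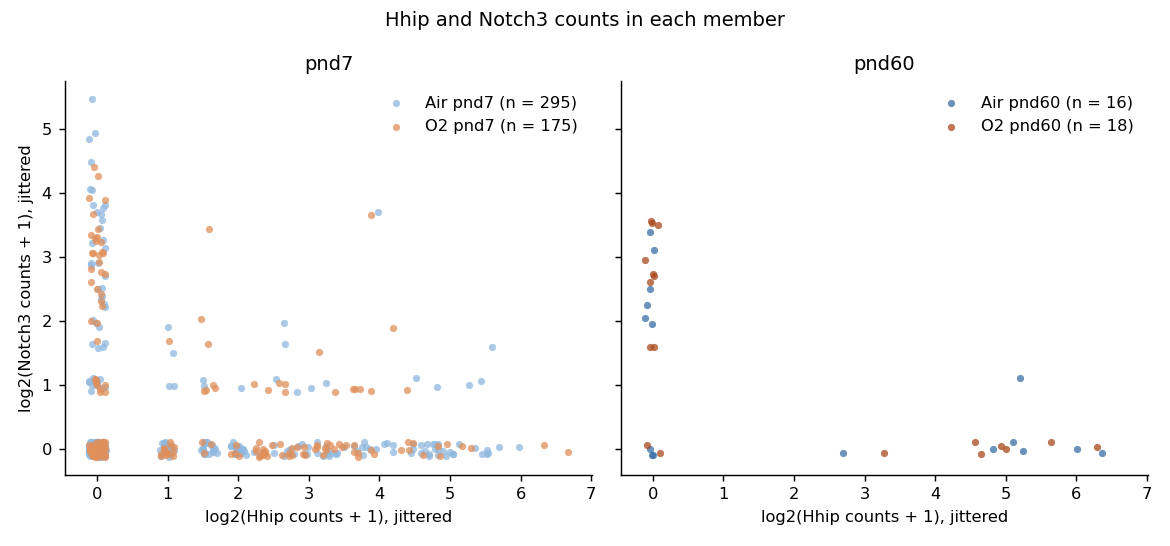
Counts of Hhip (x axis) and Notch3 (y axis) in each Acta2-high cell, as log2 of the count + 1 with a small random shift, at pnd7 (left) and pnd60 (right). At pnd60 the cells lie along the axes, with 1 of 16 in Air and 0 of 18 in O2 holding both.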

How the data were processed

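Single lung cells were captured on the 10x Chromium platform. The authors deposited raw counts, in which reads with the same molecular identifier count once for a gene in a barcode, and the submitters' processing notes name Cell Ranger, Seurat 3.2.1 and the genome build mm10. The annotation is not given in the sources used here. The 5 libraries held 18236 barcodes and 42454 features.

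Barcodes with 701 to 7999 genes and under 5% of counts from 2 mitochondrial features were kept, which left 2308 of 4243 in Air pnd7, 1246 of 2664 in O2 pnd7, 4397 of 5128 in Air pnd60, 4756 of 5632 in O2 pnd60 and 493 of 569 in the sorted library. Median counts per filtered cell were 3915, 7119.5, 2168, 2315.5 and 15529. Counts of the selected cells were summed per library and given as CPM with exact Poisson intervals. A log2 ratio carries a 95% interval from the binomial distribution of the counts. A gene was called past 2-fold among genes with 100 or more counts in both libraries together. Shares carry exact Clopper-Pearson intervals, and a gene with 0 counts was set at 3 counts where a bound is given. Levels against the neighbouring cell sets were compared by an exact two-sided sign-flip test over the 4 libraries. The interval code was tested on simulated data.

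Cells were thinned to 2000 counts where shares were compared across depths. Doublets were called with Scrublet in scanpy 1.11.5 as an alternative only. It marked 0 of 2308 cells in Air pnd7 and 4 of 1246 in O2 pnd7, too few to count as working there, and 141 of 4397 and 157 of 4756 at pnd60, of which 2 had been selected, both in Air. No selected barcode was shared between libraries. Python 3.11.15, numpy 2.4.6, scipy 1.17.1 and pandas 2.3.3 were used.

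The cells and the 34 gene lists were chosen with earlier results of these data known. Lists can share genes, and the airway and vascular smooth muscle lists both hold Myh11 and Cnn1. Genes were named by rule: those of the selection, Cdkn1a, Cdkn2a and Lmnb1, list genes past 2-fold or otherwise the 3 with most counts, and the 10 highest and 10 lowest ratios of a comparison, leaving out hemoglobin, mitochondrial, sex-linked and predicted genes. List genes named beyond these, the Hhip and Notch3 pair, and the genes with antioxidant or growth factor roles at pnd60 were chosen after their values were seen. For age the extremes are given in part, and 1 gene is not reported here.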

Additional observations from a re-analysis of the deposited data

Results flagged for a closer look

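Some genes had opposite directions in O2 against Air at the 2 ages, each from 1 library per condition, and the difference between ages was not tested. Eln was at -0.37 at pnd7 and 1.42 at pnd60 on the log2 scale, and Cald1 at -0.26 and 1.37. Mustn1 was at -0.83 and 1.0, Des at -0.42 and 0.49, Hhip at -0.41 and 0.43, and Col3a1 at -0.29 and 0.47. Acta2, which chose the cells, was at -0.17 and 1.07. Within the Myh11 or Actc1 class at pnd7, the class that makes up most adult cells, Eln was at -0.07, Mustn1 at -0.81, Des at -0.32 and Hhip at -0.70. In that class Acta2 was at 6327 CPM in Air and 7464 in O2 at pnd7, and Cald1 at 1778 and 1795. At pnd60 Acta2 was at 4521 and 7920 CPM there, and Des at 1355 and 1308. Eln was at 1047 and 3972 CPM at pnd60 in the class, Mustn1 at 1466 and 2473, and Hhip at 3375 and 3853. Col3a1 was at 4897 and 3096 CPM at pnd7 and at 3178 and 5851 at pnd60. The opposite directions of Acta2, Cald1 and Des were thus not seen within the class, whereas those of Eln, Mustn1 and Col3a1 were. For Hhip the adult values lay close together, and their difference was not tested.

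The library sorted on C12FDG, which entered no comparison, held 3 cells that met the rule, of 493 filtered (0.609%, 0.126 to 1.77). Of these, 1 held Myh11 or Actc1 alone, 1 both and 1 neither.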

How the results depend on the processing

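No paired analysis was possible because no condition had more than 1 library to pair between conditions. The levels against the collagen and pericyte sets were already compared within each library. With each library left out in turn, chosen after seeing the data, the mean log2 ratio of the 14 genes named there moved by at most 1.10 (Myh11). Their direction was kept in 56 of 56 cases, which does not test it. Each of these genes already had the same sign in every unsorted library, so no other outcome was possible. Of the single gene ratios recomputed under the alternatives, 1011 stayed within counting error of the reported value, 465 moved further, and 12 reversed from a log2 ratio of at least 1 in size. Of the list medians 627 stayed close, 79 moved and 2 reversed. The share of selected cells at pnd7 was 11.0% in Air with 500 to 8000 genes and under 10% mitochondrial counts, 10.4% in Air and 10.8% in O2 with 10 or more Acta2 counts, 11.0% in O2 with Acta2 at 0.1% of counts or more, and 9.66% in Air and 7.72% in O2 after thinning. The myofibroblast list median at pnd7 ranged from -0.89 to -0.60 and the lipofibroblast median from 0.86 to 1.19 over the alternatives on all classes together.

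Genes past 2-fold higher at pnd7 numbered 82 with 10 or more Acta2 counts, 96 by mean CPM per cell, 90 with a minimum of 50 counts and 19 of 1648 after thinning, where 29 were lower, against 124 lower with 50 counts. At pnd60, 3 were higher and 3 lower without cells holding Epcam, Ptprc or Cdh5, 2 and 2 with Acta2 at 0.1% of counts, 2 and 1 of 26 after thinning, and 22 and 33 with 50 counts, while 5 were higher by mean CPM. For age in Air, 94 were higher and 298 lower of 978 after thinning, and 1493 were higher with 50 counts. In O2 these were 49 and 228 of 572, and 1726. Thinning and the minimum change how many genes can be tested, and for the others the cause was not tested.

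At pnd7, directions reversed without cells holding Epcam, Ptprc or Cdh5 for Cbr2 (0.78), and with 10 or more Acta2 counts for Ccl6 (0.36) and Cdkn1a (-0.0045). Cdkn1a was at -0.057 with Acta2 at 0.1% of counts, and Ccl6 at 1.43 in the Myh11 or Actc1 class. In the Pdgfra class alone, Gfod2 (-0.31), Itm2a (-0.33), Npnt (-0.10), Tgfbi (0.11), Hbb-bs (1.19) and the red blood cell median (1.02) reversed. At pnd60, Ctsd was at 0.16 without cells holding Epcam, Ptprc or Cdh5 and at 0.049 with Acta2 at 0.1% of counts. The contractile list median between ages in O2, 1.10 over all selected cells, was at -0.061 in the Myh11 or Actc1 class alone, a setting chosen after seeing the data. The cause was not tested. At pnd60 the sums of 89712 and 59229 counts limit what can be measured.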
